A study of Mus musculus with 2 samples.

Results

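The mouse Cyp2, Cyp3 and Cyp4 genes encode cytochrome P450 enzymes, and most of them lie in tandem clusters of related copies. All protein-coding genes with a GENCODE symbol of Cyp2, Cyp3 or Cyp4 followed by a letter and digits were taken as members: 77 genes of 21755 protein-coding genes on chromosomes 1 to 19 and X, 48 of them Cyp2, 9 Cyp3 and 20 Cyp4. Binding of CTCF was read in kidney tissue of newborn B6NCrl mice, aged 0 days, in chromatin immunoprecipitation and sequencing libraries that form 1 group. These 2 libraries are numbered as biological replicates 1 and 2 but carry the same donor and biosample in the labels, so the spread between them may be technical, and the labels give no genotype, treatment or second group. The authors' optimal peak list, the list they kept as reproducible between libraries, holds 65470 peaks on these chromosomes, and it is the list meant below unless another is named. Neighbouring members at most 500 kb apart were joined into clusters, and each cluster was read from its first to its last gene plus 50 kb on each side: this gave 7 clusters with 69 members, and 8 members that stand alone. The cluster windows held 92 peaks and the windows of the single genes 51.

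P450 enzymes are haem proteins, mostly of the endoplasmic reticulum, that insert an oxygen atom into their substrates. Cyp2 and Cyp3 enzymes mostly oxidise drugs, other foreign compounds and polyunsaturated fatty acids, and Cyp4 enzymes mostly hydroxylate the end of fatty acid chains, among them arachidonic acid, whose products act on vessel tone and salt handling in the kidney. CTCF is a zinc-finger protein that binds a defined DNA motif and stops the cohesin complex, so that pairs of sites whose motifs point at each other often form the anchors of chromatin loops. The peak lists hold no expression values, so neither the activity of these genes nor the tissue label could be read from them.

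A CTCF motif of 19 bp, learned from the peaks, was searched within 100 bp of each summit. The sequences shown here are from the GRCm38.p6 genome, and capitals mark the 19 matched bases. The first set shows a site that is repeated through the Cyp2b genes on chromosome 7 in copies with a peak and copies without one.
Cyp2b10, chr7:25917451-25917479, plus strand, with a peak: tttccCAGACACTAGAGGGCAGGCccacc
Cyp2b9, chr7:26201254-26201282, plus strand, with a peak: tttccCAGACACTAGAGGGCAGGCccaac
Cyp2b19, chr7:26767267-26767295, plus strand, with a peak: tttccCAGACACTAGAGGGCAGGCccacc
Gm45034, a Cyp2b-like copy annotated as a pseudogene, chr7:26739114-26739142, plus strand, with a peak: tttccCAGACACTAGAGGGCAGTCctatc
Cyp2b13, chr7:26088764-26088792, plus strand, no peak: tttccCAGACACTAGAGGGCAGGCccacc
Cyp2b27-ps, a pseudogene, chr7:26015010-26015038, minus strand, no peak: ttttcCAGACACCAGAGGGTGGGCtcacc
Cyp2b23, chr7:26672675-26672703, minus strand, no peak: tttccCAGACACCAGAGAGTAGGCccact

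The second set shows the sites near the ends of Cyp4f genes on chromosome 17, which share most of their bases and are read in the direction of the gene.
Cyp4f17, chr17:32528954-32528982, plus strand: acccaGAGCCATCAGAGGGCGCTGcagga
Cyp4f16, chr17:32551293-32551321, plus strand: acccaGAGCCATCAGAGGGCGCTGcagga
Cyp4f37, chr17:32635229-32635257, plus strand: acagaACGCCAGCAGGGGGCGCTAgaggg
Cyp4f15, chr17:32703028-32703056, plus strand: gcagaATACCAGTAGGGGGCGCTGgagga
Cyp4f14, chr17:32905388-32905416, minus strand: accgaGAGCCAGCAGGGGGCGCTGtgaaa

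The third set shows the outer sites of the Cyp2c cluster, between which lay the longest gap of the 7 clusters, and a site within coding sequence of Cyp2j6 beside its copy in Cyp2j5.
Cyp2c cluster, left, chr19:38982156-38982184, plus strand: acagcCATCCACTAGAGGGCGGGCtttga
Cyp2c cluster, right, chr19:40225608-40225636, minus strand: acccaCAGCCAGCAGGTGGCAGTGtaggc
Cyp2j6, chr4:96525972-96526000, minus strand, with a peak: gtgatTGGCCAGAAGAGGGCAGCAagact
Cyp2j5, chr4:96634281-96634309, minus strand, no peak: gttatTGGCCACAAGAGGCAGGTGagctt

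Few members had CTCF at a promoter. A promoter peak was a summit within 1 kb of a transcription start site (TSS) of any annotated transcript of the gene. Such a peak was found at 8 of 77 members, 10.4% (95% Wilson interval 5.36 to 19.2%), against 39.4% of all protein-coding genes. By family, 7 of 48 Cyp2 genes, 0 of 9 Cyp3 genes and 1 of 20 Cyp4 genes had one. The Wilson interval for the Cyp3 genes reaches 29.9%, so the small number of genes limits what their count of 0 can show. Intervals here cover counting error only, and neighbouring members can share a peak and a sequence, so they are not independent. The same number of members, 8, had a promoter peak in the conservative list, the authors' stricter list, against 36.6% of all genes. It was also 8 in the upper set of each library, the library's own highest peaks in the number of the optimal list, against 39.1% of all genes in replicate 1 and 39.2% in replicate 2. All 8 had a promoter peak in the upper set of replicate 1 and in that of replicate 2, as 33.5% of all genes did. These were not required to be the same peak. In the whole list of each library, which holds 300000 peaks with no filter for reproducibility, the count was 18 members in replicate 1, against 71.6% of all genes, and 17 in replicate 2, against 68.7%. None of the 9 Cyp3 genes had a promoter peak even there.

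The members lay far from CTCF sites. The median distance from a member to its nearest summit was 37500 bp, with quartiles of 10492 and 109029 bp, against a median of 2521 bp for all genes. A summit lay within 5 kb of a TSS of 14 members, against 59.3% of all genes. The nearest summit was farther than 50 kb for 32 members, 41.6%, against 12.1% of all genes, and farther than 100 kb for 21 members, against 7.98% of all genes. Of these 21, 14 were Cyp2 genes, 6 Cyp3 genes and 1 a Cyp4 gene. The farthest was Cyp2c67, at 550074 bp.

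**Figure D1:**
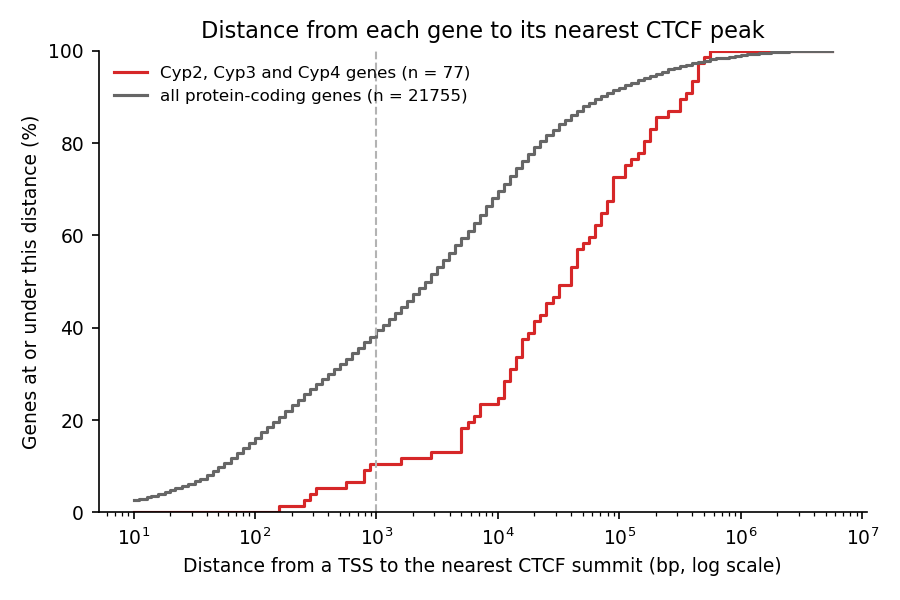
Share of genes (y axis, %) whose nearest optimal CTCF summit lies at or under the distance on the x axis (bp from a TSS, log scale), for the 77 Cyp2, Cyp3 and Cyp4 genes (red) and 21755 protein-coding genes (grey); the dashed line marks 1 kb. The red line stays below the grey one at 1 kb (10.4% against 39.4%) and at 5 kb, and the medians are 37500 and 2521 bp.

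Promoters of the members are poor in CpG, the dinucleotide of most constantly active promoters. The median ratio of observed to expected CpG within 500 bp of the gene's 5′ end was 0.126 for members and 0.558 for all genes. Starts inside a gene were not included, so the ratio does not describe the sequence at promoter peaks there. Of 77 members, 70 fell in the 4 lowest deciles of this ratio. In those deciles 6 of 70 members had a promoter peak, against 17.2% of all genes there. The members lay mostly in the lowest of these deciles, so this pooled share is not matched to them. In decile 1, 2 of 35 members had a promoter peak, against 5.65% of all genes. In decile 2 it was 0 of 20, against 12.97%. In decile 3 it was 1 of 10, against 20.4%, and in decile 4 it was 3 of 5, against 29.84%. In the 6 higher deciles 2 of 7 members had one, against 54.2% of all genes. A low CpG ratio thus went with a low share of promoter peaks in all genes as well, and its part in the members' count was not tested beyond these shares.

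Of the 8 members with a promoter peak, 4 had it within 1 kb of the outermost start of the gene. Cyp2r1 encodes the main hydroxylase of vitamin D in the liver. Its peak lay 236 bp downstream of a TSS, in an intron, at signal percentile 56.1, which is its place in the optimal list where the highest-signal peak is at the top. It ranked 30275 in replicate 1 and 26248 in replicate 2, where rank 1 is the highest signal. Its best motif score was 12.7 bits, under the 13.6 that a match needed.

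Cyp2u1, a fatty acid hydroxylase gene, had a peak in its coding sequence, 144 bp from a TSS, at percentile 47.3, with ranks of 38153 and 30900 in replicates 1 and 2 and no motif match. A stronger peak of the same gene lay in an intron, 3106 bp from a TSS, at percentile 84.8 and with a match. Cyp2j9, one of the arachidonic acid oxidases, had its peak 299 bp upstream, at percentile 42.7, also without a match; it ranked 34349 in replicate 1 and 58244 in replicate 2.

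Cyp2d22, of the drug-metabolising Cyp2d family, had a pair of weak peaks, 279 bp from 1 TSS and 746 bp upstream of another. Their percentiles were 9.08 and 11.6, and neither had a match. The first had ranks of 72655 and 62958 in replicates 1 and 2 and was outside the upper set of replicate 1, which ends at 65482. The second was inside both upper sets, at 64900 and 48148. Among the 8 members Cyp2d22 had the lowest promoter signal.

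The other 4 members had their promoter peak only at a start inside the gene. Cyp4f37 had the highest-signal peak of its cluster 544 bp from an internal TSS and 13937 bp from its 5′ end, at percentile 96.1, with ranks of 7752 and 828 in replicates 1 and 2. This peak also lay 938 bp from the end of the gene, in an exon past the last coding base. It is counted again below among the peaks at gene ends. Cyp2w1, a gene known from fetal gut and from tumours, had peaks 865 bp before and 847 bp after an internal TSS. They lay at percentiles 57.1 and 98.2, both in introns and both with a match on the minus strand, against the plus-strand gene. The stronger one ranked 447 and 2722 in replicates 1 and 2 and was the highest-signal promoter peak of any member. Cyp2b10, a drug-metabolising enzyme induced by phenobarbital in liver, and Cyp2b19, a fatty acid epoxygenase of skin keratinocytes, each had a peak 734 bp after an internal TSS, 19880 and 10147 bp from their 5′ ends. Their percentiles were 49.3 and 56.9. With the gene's 5′ end as its only start, 4 members had a promoter peak, against 31.3% of all genes.

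Just outside the limit, 6 members had their nearest summit between 1 and 5 kb from a TSS. The closest was Cyp4f39, a skin hydroxylase of very long fatty acids, at 1467 bp, while the member just inside the limit was Cyp2w1, with its nearest summit at 847 bp. Cyp4f13 followed at 2718 bp, then Cyp4f18, a leukotriene hydroxylase of neutrophils, at 4620 bp, Cyp2d9 at 4624 bp, Cyp2t4 at 4914 bp and Cyp4f16 at 4933 bp. The peak of Cyp2t4 stood at percentile 98.7 but lay past the end of that gene, in an intron of Egln2, an oxygen-sensing prolyl hydroxylase gene, 875 bp from an Egln2 TSS.

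The members chosen by known role that had no summit within 5 kb lay 6925 to 282817 bp from one. Cyp2j5, an epoxygenase of the kidney tubule, was 16291 bp away. Cyp4a10 and Cyp4a14, which answer to the lipid-sensing receptor PPARα, were 41978 and 19854 bp away, and Cyp4a12a, which makes the vasoactive hydroxy acid of arachidonate in male mouse kidney, was 69149 bp away. Cyp2c29, a liver epoxygenase, was 170428 bp away and Cyp3a11, the main drug-oxidising Cyp3a enzyme of liver, 282817 bp. Of the members outside the clusters, Cyp3a13 was 6925 bp, Cyp4v3 10492 bp and Cyp2e1, the ethanol-oxidising enzyme, 30352 bp away. Cyp2s1, an epithelial enzyme, was 9669 bp away, and Cyp4b1, an enzyme of lung that activates plant toxins, 62281 bp.

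The clusters were poor in CTCF between their outer genes and not beside them. The 7 spans from first to last gene held 54 peaks in all, 1.00 per 100 kb, against 2.49 per 100 kb over chromosomes 1 to 19 and X. The 50 kb on either side held 38 peaks, 5.43 per 100 kb. Spans and flanks together held 1.51 per 100 kb, and the windows of the 8 single genes held 5.39 per 100 kb. Between the outer genes the density was 0.981 per 100 kb in the upper set of replicate 1 and 0.944 in that of replicate 2, against 2.49 over the chromosomes in each. In the whole lists it was 4.15 in replicate 1 and 4.06 in replicate 2, against 11.4 in each. The low density between the genes was thus seen in both libraries, in the upper sets and in the whole lists.

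**Figure D2:**
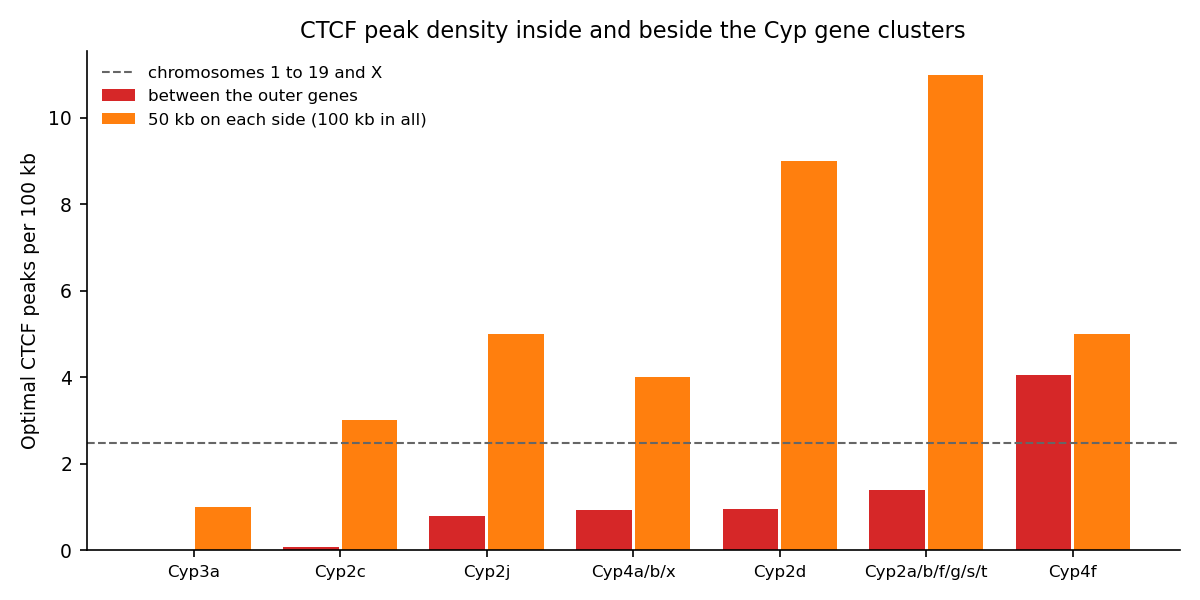
Optimal CTCF peaks per 100 kb (y axis) between the outer genes of each of 7 Cyp clusters (red) and in the 50 kb on either side (orange), with the density of chromosomes 1 to 19 and X as a dashed line at 2.49. Of the 7 red bars, 6 lie under the line and that of Cyp4f lies above it, at 4.04; of the orange bars, that of Cyp3a lies under the line, at 1 peak.

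The Cyp3a cluster on chromosome 5, from 145345279 to 146113287, held 8 genes of the main drug-oxidising family and 0 peaks between them. It also held 0 in the conservative list and in the upper sets of both libraries. Each library's whole list had 6 peaks there, 0.781 per 100 kb against 11.4 over the chromosomes. The nearest summits were at 145281034, in an intron of Zscan25 on the left, and at 146162781, on the right, 881747 bp apart. This gap ranked 166 among 65450 gaps between neighbouring summits, whose median was 14170.5 bp and 99th percentile 405446 bp. The 1 peak in its window was that on the right, 49494 bp from the last gene and so just within the 50 kb taken, at percentile 27.8. It ranked 44331 in replicate 1 and 69565 in replicate 2, outside the upper set of replicate 2. The window held 2 peaks in the upper set of replicate 1 and in the conservative list, and 0 in the upper set of replicate 2. The peak on the right was itself in the conservative list, but the count in the window thus differed between the libraries.

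The Cyp2c cluster on chromosome 19, from 39007019 to 40187333, held 14 genes, among them the fatty acid epoxygenases, and 1 peak. That peak, at 39098977, stood at percentile 5.07, ranked 67459 and 136028 in replicates 1 and 2, and was in neither upper set nor in the conservative list. To its right no optimal summit followed for 1126626 bp, a gap that ranked 87 of 65450 and contained 12 of the 14 genes. In the upper set of either library the gap was longer, 1243444 bp in replicate 1 and 1243445 bp in replicate 2, and ran from the left outer peak to the right one. Across the whole genome 452 gaps, 0.691%, were longer than 500 kb. Gaps that held at least 8 whole protein-coding genes numbered 108, and in 49 of them most of the genes were olfactory or vomeronasal receptors. By number of genes the Cyp2c gap ranked 55 with 12 and the Cyp3a gap 80 with 9, so gaps as rich in genes were found at other loci too.

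The outer peaks of the Cyp2c cluster were strong in both libraries. The left one, at 38982169, lay in Cyp2c52-ps, a pseudogene, at percentile 92.0, with ranks of 4427 and 5292 in replicates 1 and 2. The right one, at 40225603, lay in an intron of Pdlim1, a cytoskeletal adaptor gene, at percentile 84.9, with ranks of 10062 and 8981. Their motifs, shown above, were on the plus strand at the left and on the minus strand at the right and so pointed at each other across 1243434 bp. The nearest peaks with a match outside the Cyp4a cluster also pointed inward, across 608195 bp, from 115101809 (percentile 95.4) to 115710004 (percentile 82.0). The right one of these was 62281 bp from the last gene, outside the window. In the other 5 clusters the nearest outer motifs did not face each other, so inward pairs enclosed 2 of 7 clusters. The share of inward pairs at other loci was not counted, so this count has nothing to be set against. Both outer motifs were on the plus strand at the Cyp2d cluster (percentiles 99.4 and 94.0) and at the Cyp3a cluster (70.8 and 27.8), where the left one lay 110424 bp from the first gene. Both were on the minus strand at the Cyp4f cluster (9.83 and 81.7) and at the Cyp2j cluster (72.4 and 78.5). On chromosome 7 they pointed away from each other, at percentiles 39.0 and 98.7. Whether any of these pairs forms a loop was not measured.

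**Figure D3:**
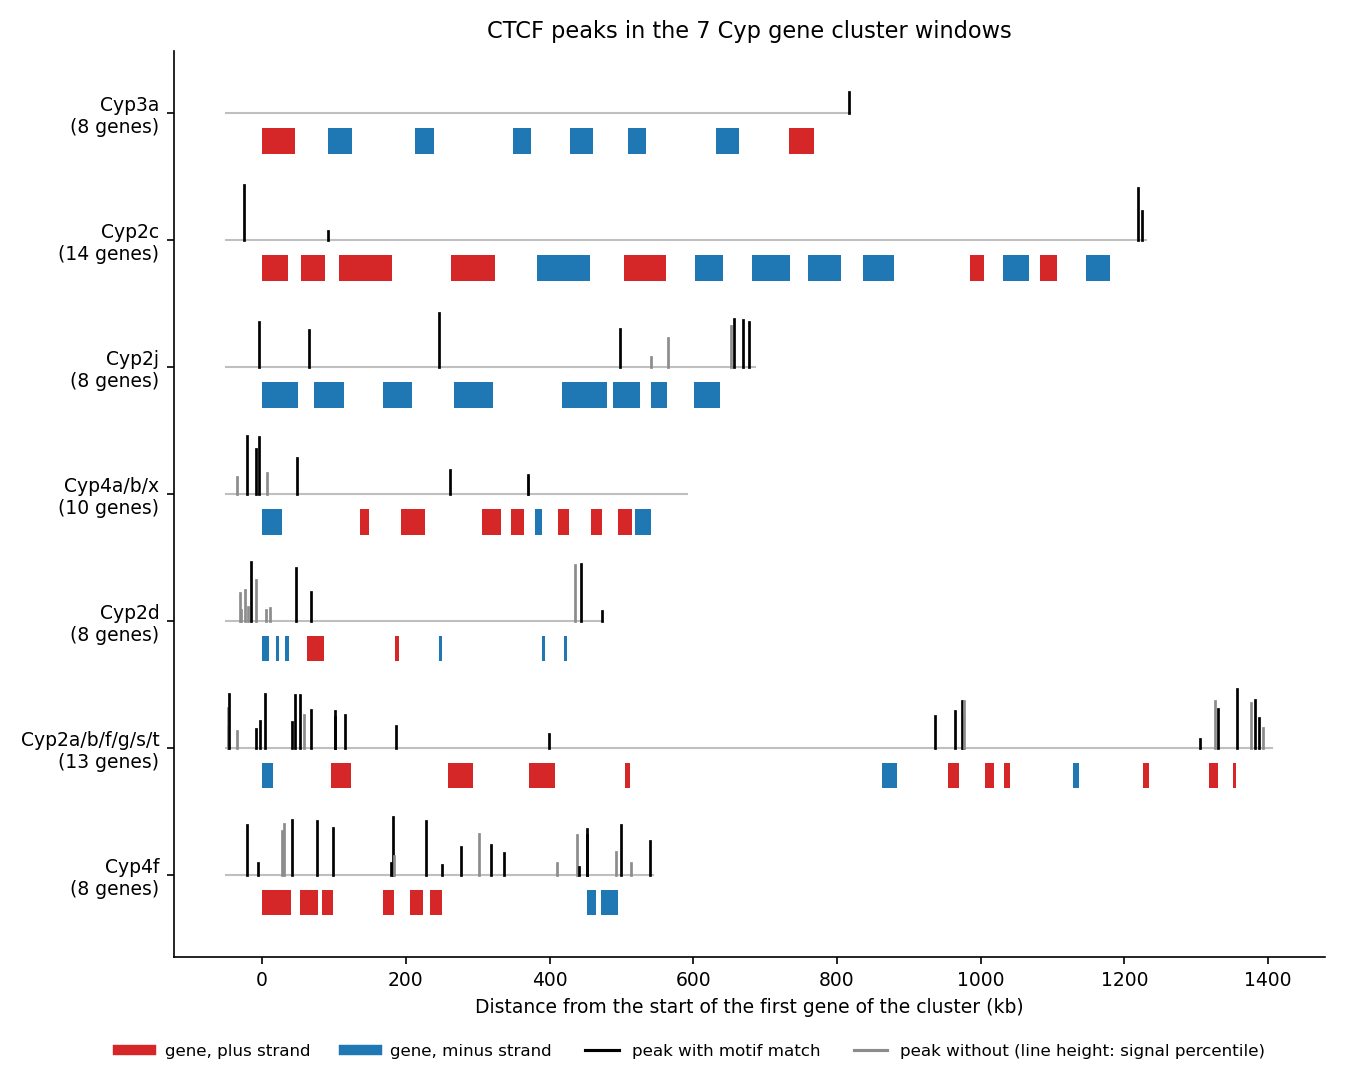
The 7 Cyp cluster windows, each from 50 kb before its first gene to 50 kb after its last (x axis, kb from the start of the first gene). Boxes are the 69 clustered members by strand and vertical lines optimal CTCF peaks, black with a motif match and grey without, whose height is the signal percentile. Cyp3a shows 1 peak at the right edge, Cyp2c 4 peaks of which 1 is between genes, and Cyp4f 25 peaks, of which 20 lie between its outer genes.

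Between these and the Cyp4f cluster stood 4 clusters of low density. The Cyp2j cluster on chromosome 4, with 8 genes all on the minus strand, held 5 peaks between its genes, and its longest gap was 251808 bp. Its highest peak, at 96274159, was at percentile 90.2, with ranks of 8198 and 5093 in replicates 1 and 2. The Cyp4a, Cyp4b and Cyp4x genes, also on chromosome 4, lay 10 together with 5 peaks between them. The highest peak of that window, at 115085771, percentile 96.9, was in the left flank, 2937 bp from Pdzk1ip1, which encodes a small membrane protein of the proximal tubule. The longest gap, 233718 bp, held 5 genes and ran past Cyp4b1. The Cyp2d cluster on chromosome 15 had 4 peaks between 8 genes and 9 in its flanks. Its highest peak, at 82354435, was at percentile 99.4, 113 bp from the respiratory chain gene Ndufa6, and ranked 528 and 364 in replicates 1 and 2. From Cyp2d9 to the far side of the cluster ran a gap of 367389 bp; in the upper set of replicate 1 the longest gap was 269657 bp.

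The cluster on chromosome 7 with the Cyp2a, Cyp2b, Cyp2f, Cyp2g, Cyp2s and Cyp2t genes was the longest, at 1356194 bp with 13 genes. It held 19 peaks between its genes, which lay in groups near the ends and around Cyp2b19. The longest gap, 537860 bp, ranked 390 and held Cyp2a4 and Cyp2b23. In the upper set of replicate 2 and in the conservative list it was 821631 and 821629 bp, since neither the peak at Cyp2b9 nor the intergenic one at 25988482 was there. The highest peak of the window was the Egln2 peak beside Cyp2t4, with ranks of 734 and 1201 in replicates 1 and 2. The peak nearest the opposite edge, at 25798789 beyond Cyp2s1, stood at percentile 39.0.

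The Cyp4f cluster on chromosome 17 was the exception. It held 20 peaks between the outer ends of 8 genes, 4.04 per 100 kb, and its longest gap was 80824 bp. Of these genes, 2 (Cyp4f13 and Cyp4f14) lay apart from the other 6 beyond a stretch with zinc-finger genes such as Zfp871 and Zfp870. With members joined only at gaps up to 200 kb, these 2 genes formed a window of their own. The window of the other 6 then held 13 of the 25 peaks. Over all clusters the window peaks numbered 89 at this setting, in place of 92. The upper sets held 19 peaks in replicate 1 and 18 in replicate 2 between the genes, so this density too was seen in both.

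Peaks in the cluster windows had signal ranks and reproducibility close to those of the whole list. Their median signal percentile was 55.7, against 50 for the whole list; it was 49.5 between the genes and 64.3 in the flanks. The upper sets of both libraries contained 79.3% of them, against 78.6% of all peaks, and the conservative list 84.8%, against 83.8%. Across the 90 cluster peaks found in both libraries' lists, the ranks had a Spearman's rho of 0.914, a description over peaks that share both libraries, beside 0.911 over the 63805 such peaks of the whole list. The remaining 2 had no counterpart in replicate 2. The authors had kept these peaks as reproducible, so rho here describes a selection.

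**Figure D4:**
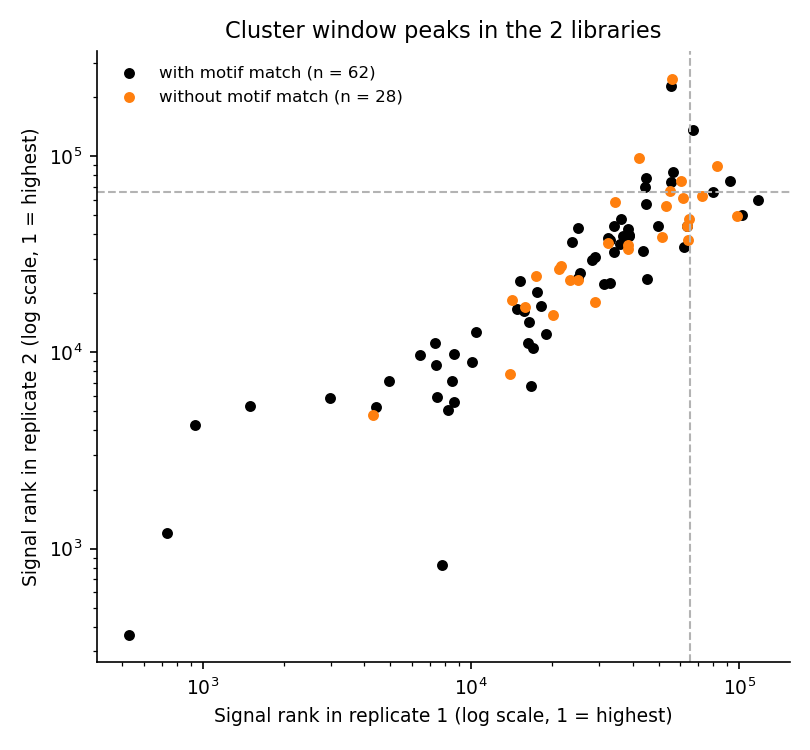
Signal rank of 90 cluster window peaks in replicate 1 (x axis) and replicate 2 (y axis), log scales with 1 the highest signal, black for the 62 peaks with a motif match and orange for the 28 without; dashed lines mark rank 65482, the end of the upper set. Most points lie near the diagonal and inside both lines.

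A motif match lay within 100 bp of 62 of 92 cluster peaks, 67.4%, against 59.7% of all peaks and 1.81% of windows 2 kb away. The share was 70.4% between the genes and 63.2% in the flanks. Read the other way, the cluster windows held 277 matches to the motif, of which 62, 22.4%, had a summit within 100 bp, against 29.5% of 135616 matches over the chromosomes. It was 1 of 40 in the Cyp3a window and 4 of 34 in the Cyp2c window. Of the strongest matches, passed by 1 in 100000 control positions, 16 of 20 had a summit, against 83.8% over the chromosomes. The single-gene windows had a summit at 36 of 79 matches.

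The clusters hold many similar gene copies, in which short reads can match more than 1 place. The share of words of 32 bases that occur once in the genome was therefore counted. The authors' read length and filters are unknown here, so this is a description of the sequence only. Between the outer genes it was 51.3% for Cyp3a, 55.3% for Cyp2c, 56.3% for Cyp4a, 61.8% for the chromosome 7 cluster, 66.4% for Cyp2d, 73.6% for Cyp2j and 83.9% for Cyp4f, against 83.7% over the chromosomes. The cluster with the most peaks per 100 kb was thus the one with the most unique sequence, and Cyp3a and Cyp2c, with the fewest peaks, had the least. The clusters between them did not follow this order: Cyp2j, with 73.6%, had 0.785 peaks per 100 kb, fewer than the 0.944 of Cyp2d, the 0.924 of Cyp4a and the 1.40 of the chromosome 7 cluster. Matches to the motif also differed in density between the outer genes. Per 100 kb they numbered 2.12 for Cyp2c, 2.12 for Cyp2d, 2.36 for Cyp2j and 3.88 for Cyp4a. They numbered 4.17 for Cyp3a, 4.50 for the chromosome 7 cluster and 8.89 for Cyp4f, against 5.15 over the chromosomes. The part of match density in the peak densities was not tested. That of unique sequence was not tested beyond the counts that follow. Where at least 90% of the words around a match were unique, 42 of 94 matches in the cluster windows had a summit, 44.7% (95% Wilson interval 35.0 to 54.7%), against 45.6% over the chromosomes. Where 50 to 90% were unique the shares were 17.9% and 19.1%, and under 50% they were 5.71% and 2.96%. In each of these 3 classes the share over the chromosomes lay inside the interval of the clusters, which was 11.0 to 27.9% in the middle class and 2.65 to 11.9% in the lowest. These counts pool the spans with the 50 kb flanks, which held 24 of the 62 cluster peaks with a match. They were not split by class between the outer genes alone.

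**Figure D5:**
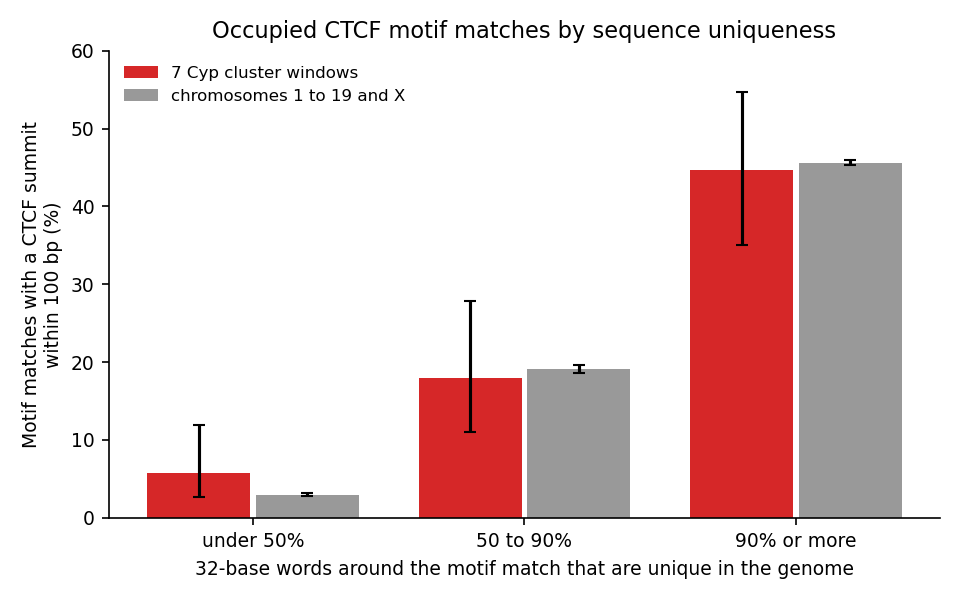
Share of motif matches with an optimal CTCF summit within 100 bp (y axis, %), by the share of 32-base words within 100 bp of the match that occur once in the genome (x axis), in the 7 cluster windows (red) and on chromosomes 1 to 19 and X (grey); bars show 95% Wilson intervals, which cover counting error only. In both the share is highest where at least 90% of words are unique, at 44.7% and 45.6%.

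Few of the matches in the long gaps lay in sequence that was at least 90% unique. Over the chromosomes 75291 of 135616 matches lay in such sequence, and in the cluster windows 94 of 277. Of the 40 matches in the Cyp3a gap, 5 lay where at least 90% of the words were unique, 19 where 50 to 90% were and 16 where under 50% were. Of the 20 in the Cyp2c gap, the counts were 1, 1 and 18. None had a summit within 100 bp, in any class, which follows from how a gap is defined, so these counts are a description only. Around the 5′ ends of the members the median unique share was 88.9%, against 98.5% for all genes, and it was under 50% for 11 of 77 members, against 5.98% of all genes. The lowest was Cyp2c29, at 7.92%. Of the 37 members with at least 90%, 7 had a promoter peak, 18.9%, against 44.4% of all such genes. Of the 30 of these in the 4 lowest deciles of CpG ratio, 5 had one, 16.7%, against 21.9% of all such genes. Both traits were read at the 5′ end, so they do not describe promoter peaks at starts inside a gene. Cyp2b10 was 97.8% unique at its 5′ end but 45.9% within 100 bp of the match at its promoter peak. Set against genes with both traits, the members' share was closer to that of other genes than it was over all members. The 4 deciles were pooled here and so not matched to the members, and the part of either trait was not tested.

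The Cyp2b site showed the same bases with and without a peak. Its 9 copies lay within the chromosome 7 cluster, and the 19 bases were identical in 5 of them. Of these 5, Cyp2b10, an intergenic copy at 25988482, Cyp2b9 and Cyp2b19 had an optimal peak, at percentiles 49.3, 29.6, 13.6 and 56.9. The ranks in replicates 1 and 2 were 56712 and 83424 for Cyp2b9 and 44693 and 77440 for the intergenic copy, so both were outside the upper set of replicate 2. At Cyp2b13 the same bases had no peak in the optimal list or in either library's whole list. The unique share within 100 bp was 42.4% there, 45.9% at Cyp2b10, 54.7% at the intergenic copy, 62.9% at Cyp2b9 and 89.4% at Cyp2b19. How reads were assigned among the copies is unknown here, and its part in these levels was not tested.

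The other copies differed in bases, counted from 1 at the 5′ end of the Cyp2b10 match. The pseudogene Gm45034 carried G18T, scored 17.7 bits against 15.5 for the common form, and had a peak at percentile 47.0. Cyp2b27-ps and a second copy at 26134712 carried T8C, C15T and A16G, scored 12.4 bits, under the threshold, and had no optimal peak. The copy in Cyp2b23 carried T8C, G13A and C15T, scored 5.60 bits and had none. Sequence around that copy was 72.4% unique, against 18.8% and 17.7% at the other 2 without a match.

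Other copies of sites also held peaks at the same bases. Of 44 matched cluster peaks outside soft-masked repeats, 13 had an aligned copy in their cluster, at least 150 bp long and 70% identical. For 11 of these a copy also had a peak, and for 10 the 19 bases were identical. Copies of each other are each counted here: the 11 are 5 Cyp2b peaks and a pair in each of the Cyp2d, Cyp4f and Cyp4a clusters. A pair in the Cyp2d cluster, at 82417720 between genes and 82438061 in an intron of Cyp2d9, stood at percentiles 87.8 and 42.5. Both lay in sequence that was 98.2% unique, so these identical matches held peaks of unequal rank in mostly unique sequence. A pair in the Cyp4a cluster, at 115368195 and 115476286, stood at 32.2 and 23.8 in sequence that was 27.6% unique.

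The reverse was seen at Cyp2j6, a gene of the epoxygenase family. A peak at percentile 59.4, with ranks of 23763 and 36495 in replicates 1 and 2, lay in its coding sequence, and the match scored 20.8 bits. All 7 other Cyp2j genes had an aligned copy of this sequence, and none of the copies had a peak in the optimal list or in either library's whole list. The copy in Cyp2j5, shown above, differed by G7C, G14C, C15A, A16G, C18T and A19G and scored 13.3 bits, just under the threshold.

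At the 3′ ends of Cyp4f genes the sites recurred, a pattern chosen after its values were seen. In 5 of 9 Cyp4f genes a summit lay within the last 1500 bp, in an exon past the last coding base, with a match on the coding strand. A summit in the last 1500 bp, whatever its exon or the strand of its match, was found at 7 of 77 members, 9.09%, and at 6.85% of all genes, so the members as a whole were near the background. Cyp4f37 stood at percentile 96.1, Cyp4f17 at 89.1, Cyp4f16 at 76.2, Cyp4f14, which inactivates leukotrienes, at 74.5 and Cyp4f15 at 6.64. The Cyp4f37 peak is also the promoter peak of that gene described above. The ranks of the Cyp4f15 peak were 55578 and 228808 in replicates 1 and 2, and it was in the upper set of replicate 1 alone. The 19 bases were identical between Cyp4f17 and Cyp4f16, whose surroundings were 94.0% identical, and 17 of 19 were shared between these and Cyp4f14. Cyp4f37 and Cyp4f15 shared 13 to 16 bases with the others. In the other Cyp4f genes, Cyp4f39, Cyp4f40, Cyp4f13 and Cyp4f18, the best score in the last 1500 bp was 8.79 to 11.7 bits, under the threshold, and there was no peak in that stretch. Peaks past the annotated gene ends were not counted. The minus-strand gene Cyp4f18 ends at 71988482, and a peak lay just past that end, at 71988295 and percentile 43.6. It had a match of 14.8 bits on the minus strand. Outside this family, Cyp3a13 had a peak 223 bp from its end and Cyp2f2, a lung enzyme, one 915 bp from its end, at percentiles 60.7 and 61.4.

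Other P450 genes and genes that work with the members had promoter peaks at shares nearer that of all genes. Of 23 other P450 genes, 10 had one, 43.5%, near the 39.4% of all genes. The highest were at Cyp17a1 and Cyp19a1, steroid synthesis genes, at percentiles 89.4 and 80.7, at Cyp1b1, at 87.1, and at Cyp24a1, which breaks down vitamin D in the kidney, at 49.4. Cyp7a1, the rate-limiting enzyme of bile acid synthesis, Cyp26a1, which clears retinoic acid, and Cyp51, of sterol synthesis, had none. Of 6 electron donors 3 had one, with 4 peaks at Por, the reductase that feeds all microsomal P450 enzymes, up to percentile 62.3. Of 14 regulators 8 had one. The highest were at the sterol receptor gene Nr1h3 and the liver factor gene Cebpa, at 89.2 and 85.9, at Rxrb, at 74.6, and at Nr1i2, the drug sensor that controls Cyp3a genes, at 66.3. Hnf4a and Nr1i3 were among those without one.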

How the data were processed

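Members, lists and alternatives were chosen with earlier results of these data known. CTCF peak lists of 2 libraries were used: per the file headers and the labels they are narrowPeak files on mm10, 1 list for each library, 1 pooled, and a conservative and an optimal list thresholded for reproducibility. The authors' signal value was deposited without a stated scale, so only its order inside a list was used. The q-value column, deposited on the −log10 scale, ranked nothing. The authors' score column was not used. For the aligner, caller, filters and reproducibility threshold the sources used here give no name or value, and depth is unknown because no counts are listed. Positions are 1-based and mm10, which is the assembly of the GRCm38.p6 genome (RefSeq) and of the GENCODE M21 genes used.

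The motif matrix was trained on the odd-numbered chromosomes, with soft-masked bases hidden; a match passed the score, in bits, that 1 in 10000 positions of windows 2 kb from peaks passed. Copies of 301-bp peak sequences were found with blastn 2.17.0. Word uniqueness was counted on both strands of the genome. With 1 group there was no comparison between conditions and no test; members are described beside all genes. Motif learning, copy search and word counts were tested on simulated data. Named genes were those with a promoter peak, those 1 to 5 kb from a summit, those beside the highest and outermost peaks of clusters, 16 chosen by known role, and up to 4 with and 3 without a peak from each list of related genes. Python 3.11.15, numpy 2.4.6, pandas 2.3.3, scipy 1.17.1 and numba 0.67.0 were used. Alternatives were another list, each library left out, other promoter, flank and gap sizes, and another matrix and threshold.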

Additional observations from a re-analysis of the deposited data

How the results depend on the processing

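The 4 summary values were recomputed under each alternative. Members with a promoter peak numbered 8 without replicate 1 (39.2% of all genes), without replicate 2 (39.1%) and in the conservative list (36.6%). They also numbered 8 with the weaker of close peaks removed (39.4%) and with any overlap of the peak interval (41%). With promoters of 2500 bp on each side they numbered 9 (49.9%), and with Cyp2ab1 added they also numbered 9. They numbered 4 in the upper-signal 50% of the list (19.8% of all genes), 4 with promoters of 500 bp (32.1%) and 4 with gene 5′ ends only (31.3%). Peaks in the cluster windows numbered 88 to 90 with a library left out, 83 to 127 under the alternatives within 1.5 times of 92, 48 in the upper-signal 50% and 54 with no flank. The share of these peaks with a motif match was 64.8 to 67.8% with a library left out, 69.9% in the conservative list, 77.1% in the upper-signal 50%, 70.4% with no flank and 64.6% with a flank of 100 kb. It was 17.4% at the stricter score of 1 in 100000 (13.2% of all peaks) and 42.4% for a matrix trained without hiding repeats (39.1% of all peaks). The median signal percentile was 54.0 to 56.3 with a library left out, 52.9 in the upper-signal 50%, 49.5 with no flank and 49.4 with a flank of 100 kb. A share or a median was taken as moved when it shifted by more than the SD between the libraries, 2.12 and 1.63 points. This SD was taken from the 2 values with a library left out, so it is no independent measure for those 2 settings. Of 55 counts for single cluster windows under alternatives, 37 stayed within 1.5 times. Leaving out a library was among the settings that moved a value. The motif share moved without replicate 1 and the median percentile without replicate 2. The count in the Cyp3a window moved from 1 to 0 without replicate 1 and to 2 without replicate 2. Each alternative changes the peaks, sites or sequence counted, and the reasons for the shifts were not tested. No paired analysis was possible because there was 1 group. Depth is unknown, so weak sites may be missing. The share of unique words was lowest in the Cyp3a, Cyp2c and Cyp4a clusters, and its part in their counts was not tested.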

Other observations

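Peaks beside single members lay near genes of other function. In the Cyp2w1 window 14 peaks were listed, and the highest, at 139364347, stood at percentile 99.4 in an intron of 3110082I17Rik, with ranks of 469 and 488 in replicates 1 and 2. The highest in the Cyp4v3 window, at 45345188, was in an intron of Fam149a, at percentile 96.4, and the highest in the Cyp2u1 window, at 131320347, was in Sgms2, a sphingomyelin synthase gene, at 95.4. Cyp4v3, Cyp2e1 and Cyp4f18 had 0 peaks between their ends. A peak in a non-coding exon of Cyp2u1, at 131294680, stood at percentile 15.5, ranked 49920 in replicate 1 and had no counterpart in the list of replicate 2.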
